A study of Mus musculus with 12 samples.

Results

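Miat, Malat1, Neat1, Gas5, Snhg1, Dleu2 and Mir17hg are 7 long noncoding RNA genes, taken by name from the 25078 genes of the count table. The genes were selected on their levels in these same libraries, compared over genotype and subset, so the differences between groups are given below as descriptions and support nothing by themselves. The libraries were made from donor T cells in the liver of lethally irradiated BALB/c mice on day 6 after hematopoietic cell transplantation. Every recipient received T cell-depleted bone marrow from WT C57BL/6 donors together with CD90.2+ T cells, and only the T cell donor differed between groups. The T cell donors were WT C57BL/6 mice, Stat3 fl/fl CD4-Cre mice (STAT3-/-, STAT3ko in the labels) or PD-1-/- mice of the same Stat3 fl/fl CD4-Cre background (STAT3-/-PD-1-/-). CD4-Cre is active in developing T cells before the CD4 and CD8 lineages part, so Stat3 was floxed out in both, whereas PD-1 was missing in all cells of the donor. Donor-type TCRbeta+ T cells were sorted into CD4+ and CD8+ fractions, which gave 6 groups of 2 libraries each. Each library pooled several recipients, and the ages of the mice were not in the labels. The 2 libraries of a group, replicate 1 and replicate 2 below, are the only measure of spread.

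The 7 genes act as RNA and not through a protein. Miat, also named Gomafu, is a nuclear RNA with copies of a short motif to which the splicing factor SF1 binds. Malat1 collects at nuclear speckles, which store splicing factors, and Neat1 is the scaffold of paraspeckles, nuclear bodies that hold back RNA and RNA-binding proteins. Gas5 and Snhg1 carry small nucleolar RNAs (snoRNAs, guides for the modification of ribosomal RNA) in their introns, while their spliced transcripts are short-lived in growing cells. Dleu2 and Mir17hg are the precursors of microRNAs, miR-15a and miR-16-1 from the first and the miR-17-92 cluster from the second. In T cells, miR-15/16 restrain cell cycle genes, and miR-17-92, a target of MYC, favours expansion of activated cells.

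Not all 7 were abundant. By mean count over the 12 libraries, among 2505 genes annotated as long noncoding, Malat1 ranked 1, Gas5 5, Neat1 7 and Snhg1 12, whereas Mir17hg ranked 57, Miat 80 and Dleu2 161. Counts of Malat1 made up 0.0340% to 0.107% of a library. Per exon length, as mean RPKM (reads scaled by exon length and library size), Gas5 had 146.5, Malat1 104 and Snhg1 103, followed at a distance by Mir17hg with 4.72, Neat1 with 3.69, Dleu2 with 1.70 and Miat with 0.840. How well RNA without a poly(A) tail is seen depends on the library kit, for which the labels and the supplement differ. The ranks therefore hold for these libraries and may not be those of the RNAs in the cell. In the count table (mm10), Miat lies at chr5:112213228-112228948 on the minus strand with 8760 exonic bases. Malat1, at chr19:5795690-5802672, and Neat1, at chr19:5824710-5845480, are neighbours on the minus strand. Gas5 is at chr1:161034916-161038539 and Snhg1 at chr19:8723487-8726326, both on the plus strand. Dleu2 spans chr14:61602836-61682373 on the minus strand, and Mir17hg chr14:115044390-115046728 on the plus strand.

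The SF1 motif, TACTAAC as DNA, sets Miat apart in sequence. It was counted on the sense strand only, in 1 transcript for each gene. The longest annotated Miat transcript (9163 bases) held 6 copies, the Neat1 transcript (20771 bases) 1, and the longest transcripts of the other 5 genes none. Of 29758 genes with a transcript of at least 1000 bases, 3 held at least as many copies as Miat, which is among them, and 92.3% held none. The 200 bases of Miat with the most copies lie in exon 7 of 7, at chr5:112217319-112217518 on the minus strand (GRCm38), and are shown for their 3 copies in capitals.
Miat exon 7: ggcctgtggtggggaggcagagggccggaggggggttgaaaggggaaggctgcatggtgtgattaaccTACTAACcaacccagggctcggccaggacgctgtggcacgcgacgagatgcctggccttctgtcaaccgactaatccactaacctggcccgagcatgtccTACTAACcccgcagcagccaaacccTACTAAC

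Promoters of 6 of the 7 genes were in RefSeq (GRCm38.p6), as 300 bases from 250 before to 50 after the start, with 2 entries for Gas5. They were searched on both strands for TTCNNNGAA (the STAT motif), CACGTG (the E-box bound by MYC) and TGANTCA (the AP-1 motif), which occur in 8.30%, 7.15% and 7.81% of 32851 promoters. The Mir17hg window lies inside the precursor, across the mature sequences of miR-20a-5p and miR-19b-3p, and is not its promoter, so it is left aside. The only match among the 6 windows of the other 5 genes was CACGTG in the Dleu2 promoter, 178 bases before the start. The Miat promoter, with the gene whose level differed most between WT and the other genotypes, and the Dleu2 promoter are printed, the match in capitals; their GC content was 64.3% and 69.0%, against a median of 52.7%.
Miat promoter, chr5:112228899-112229198, minus strand: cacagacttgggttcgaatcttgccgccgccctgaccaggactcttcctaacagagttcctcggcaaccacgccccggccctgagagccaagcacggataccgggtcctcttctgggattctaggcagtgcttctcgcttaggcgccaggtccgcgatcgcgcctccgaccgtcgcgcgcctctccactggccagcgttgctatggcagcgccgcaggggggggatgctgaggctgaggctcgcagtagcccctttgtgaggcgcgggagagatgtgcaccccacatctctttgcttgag
Dleu2 promoter, chr14:61682324-61682623, minus strand: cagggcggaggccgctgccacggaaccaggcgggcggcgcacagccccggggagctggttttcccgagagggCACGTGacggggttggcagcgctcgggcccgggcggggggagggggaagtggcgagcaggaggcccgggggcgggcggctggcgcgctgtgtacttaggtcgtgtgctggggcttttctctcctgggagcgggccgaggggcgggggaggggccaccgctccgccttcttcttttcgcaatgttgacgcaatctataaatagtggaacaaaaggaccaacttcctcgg

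The microRNAs that lie in Mir17hg (the first 6) and Dleu2 (the last 2) are given as RefSeq mature sequences with the seed, bases 2 to 8, in capitals. The seed pairs with target transcripts, so microRNAs of the same seed share targets.
mmu-miR-17-5p: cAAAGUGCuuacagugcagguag
mmu-miR-18a-5p: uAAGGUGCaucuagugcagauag
mmu-miR-19a-3p: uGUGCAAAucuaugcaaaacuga
mmu-miR-20a-5p: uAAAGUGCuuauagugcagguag
mmu-miR-19b-3p: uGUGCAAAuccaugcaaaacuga
mmu-miR-92a-3p: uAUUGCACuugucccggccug
mmu-miR-15a-5p: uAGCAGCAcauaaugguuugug
mmu-miR-16-5p: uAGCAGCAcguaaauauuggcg
In the first cluster, miR-17-5p and miR-20a-5p share a seed, as do miR-19a-3p and miR-19b-3p, and miR-15a-5p and miR-16-5p share the seed of the second. In the count table, the Mir17hg gene begins downstream of the hairpins of miR-17, miR-18a, miR-19a and miR-20a, so its counts stem from the 3′ part of the precursor.

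The deleted genes had lower levels where the labels name a deletion, given as CPM (counts scaled to library size, corrected by the trimmed mean of M values). Stat3 was at 369 and 467 CPM in the CD4 WT libraries, 140 and 164 in CD4 STAT3-/- and 157 and 219 in CD4 STAT3-/-PD-1-/-. The same gene was at 397 and 384 CPM in CD8 WT, 149 and 136 in CD8 STAT3-/- and 154 and 235 in CD8 STAT3-/-PD-1-/-. Stat3 RNA thus remained in all libraries without STAT3. By edgeR's quasi-likelihood test, Stat3 was not called in STAT3-/- against WT (adjusted p = 0.0550 in CD4 and 0.108 in CD8). It was called lower in STAT3-/-PD-1-/- against WT in both subsets. Pdcd1, which encodes PD-1, was at 235 to 454 CPM in the 8 libraries with intact PD-1 and at 26.0 to 93.6 CPM in the other 4. The labels of the sorted lineage held, with Cd4 at no more than 2.73 CPM in the CD8 libraries and Cd8a at no more than 5.64 CPM in the CD4 libraries. Within their own subset, both were lower in STAT3-/-PD-1-/- cells. Cd4 was at 1695 to 1887 CPM in the CD4 WT and STAT3-/- libraries and at 1323 and 1242 CPM in CD4 STAT3-/-PD-1-/-. Cd8a was at 1023 to 1339 CPM in the CD8 WT and STAT3-/- libraries and at 595 and 589 CPM in CD8 STAT3-/-PD-1-/-.

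Markers of other cells were measured in the same libraries. The summed level of 8 hepatocyte markers was 1.07 to 3.92 CPM, led by Trf. The summed level of 6 T cell genes, led by Lck, was 3655 to 3949 CPM in CD4 WT and STAT3-/- libraries against 3212 and 3043 CPM in CD4 STAT3-/-PD-1-/-, and 3338 to 3657 CPM against 2674 and 2651 CPM in CD8. The STAT3-/-PD-1-/- groups were thus lowest in this sum, as they were in Malat1. Not every gene of the list followed the sum. In CD4, Cd3e was at 533 and 676 CPM in WT and at 610 and 586 CPM in STAT3-/-PD-1-/-, with overlap. In CD8, Cd3e was at 705 to 736 CPM in WT and STAT3-/- and at 604 and 614 CPM in STAT3-/-PD-1-/-. The summed level of 8 macrophage markers, led by Cd68, was 27.7 to 35.8 CPM in CD8 WT and CD8 STAT3-/-, 17.5 and 18.9 CPM in CD8 STAT3-/-PD-1-/-, and 6.97 to 15.9 CPM in the CD4 libraries. Cd68 alone made up 29.1 and 28.9 CPM of the 29.9 and 35.8 CPM in CD8 WT and 27.2 and 27.8 CPM of the 27.7 and 32.8 CPM in CD8 STAT3-/-. In CD4, it made up 8.27 and 8.68 CPM of 9.14 and 15.9 CPM in WT and 5.93 and 6.94 CPM of 6.97 and 12.8 CPM in STAT3-/-. In these groups, the other macrophage markers were thus higher in replicate 2. The NK receptor gene Klrb1c, also expressed by activated T cells, was at 48.9 and 56.2 CPM in CD8 WT, 29.1 and 52.3 CPM in CD8 STAT3-/- and 22.9 and 11.2 CPM in CD8 STAT3-/-PD-1-/-, and the defining NK gene Ncr1 was at or near 0. Among the endothelial markers, Pecam1, which T cells express too, made up nearly all of a sum of 110 to 198 CPM. B cell markers summed to at most 0.311 CPM and neutrophil markers to at most 1.14 CPM, and the erythroid genes were at 0. The part of these cells, or of the lower sum of T cell genes, in the differences of the 7 genes was not tested.

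Miat was high in a single group, CD4 WT. Its levels there were 27.3 and 44.2 CPM (601 and 1044 counts). In CD4 STAT3-/- cells, levels were 0.801 and 3.33 CPM (17 and 75 counts), and in CD4 STAT3-/-PD-1-/- cells 0.952 and 1.07 CPM (22 and 27 counts). No CD4 library without STAT3 reached the lower CD4 WT library.

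In CD8 cells, the same order stood at lower levels. CD8 WT libraries had 2.76 and 4.31 CPM of Miat (62 and 108 counts). CD8 STAT3-/- libraries had 0.647 and 1.10 CPM (15 and 27 counts), and CD8 STAT3-/-PD-1-/- libraries 0.442 and 0.490 CPM (10 and 12 counts). All 3 CD8 groups were apart from each other.

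From the highest to the lowest mean ± SD (n = 2), Miat was at 35.8 ± 11.9 CPM in CD4 WT, 3.54 ± 1.10 in CD8 WT, 2.07 ± 1.79 in CD4 STAT3-/-, 1.01 ± 0.0849 in CD4 STAT3-/-PD-1-/-, 0.876 ± 0.323 in CD8 STAT3-/- and 0.466 ± 0.0338 in CD8 STAT3-/-PD-1-/-. In this order, CD8 WT overlapped CD4 STAT3-/-, which overlapped CD4 STAT3-/-PD-1-/-, which overlapped CD8 STAT3-/-, and CD4 WT stood apart from all others.

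In the edgeR fit, Miat was 17.1-fold lower in STAT3-/- than in WT CD4 cells (log2 fold change -4.09 ± 0.57, SE) and 34.6-fold lower in STAT3-/-PD-1-/- than in WT CD4 cells (-5.11 ± 0.61). The CD4 STAT3-/- libraries differed so far that the first value was -5.48 without their replicate 2 and -3.41 without their replicate 1. In CD8 cells, Miat was 4.02-fold lower in STAT3-/- (-2.01 ± 0.41) and 7.47-fold lower in STAT3-/-PD-1-/- (-2.90 ± 0.44) than in WT. Between STAT3-/-PD-1-/- and STAT3-/- cells, the log2 fold change was -1.02 ± 0.62 in CD4, where the libraries overlapped and the sign turned to 0.36 without replicate 2 of CD4 STAT3-/-, and -0.89 ± 0.47 in CD8, where they did not overlap. The log2 fold change of STAT3-/- against WT was 2.10 ± 0.76 higher in CD8 than in CD4 cells, and that of STAT3-/-PD-1-/- against WT 2.22 ± 0.86 higher, but neither difference passed the edgeR test, which called 0 and 1 of 12334 genes. That fit did not pair the CD4 and CD8 fractions of a pool of recipients. With the pool as a block, a setting chosen after seeing the data, the differences were 2.14 ± 0.36 and 2.22 ± 0.46, and neither passed, with 0 and 84 genes called (0.681% of all genes for the latter). In bulk libraries such as these, fewer cells that express a gene cannot be told apart from less RNA in each cell. The 3 genotype comparisons of a subset share libraries, so that their values are not independent of each other.

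**Figure D1:**
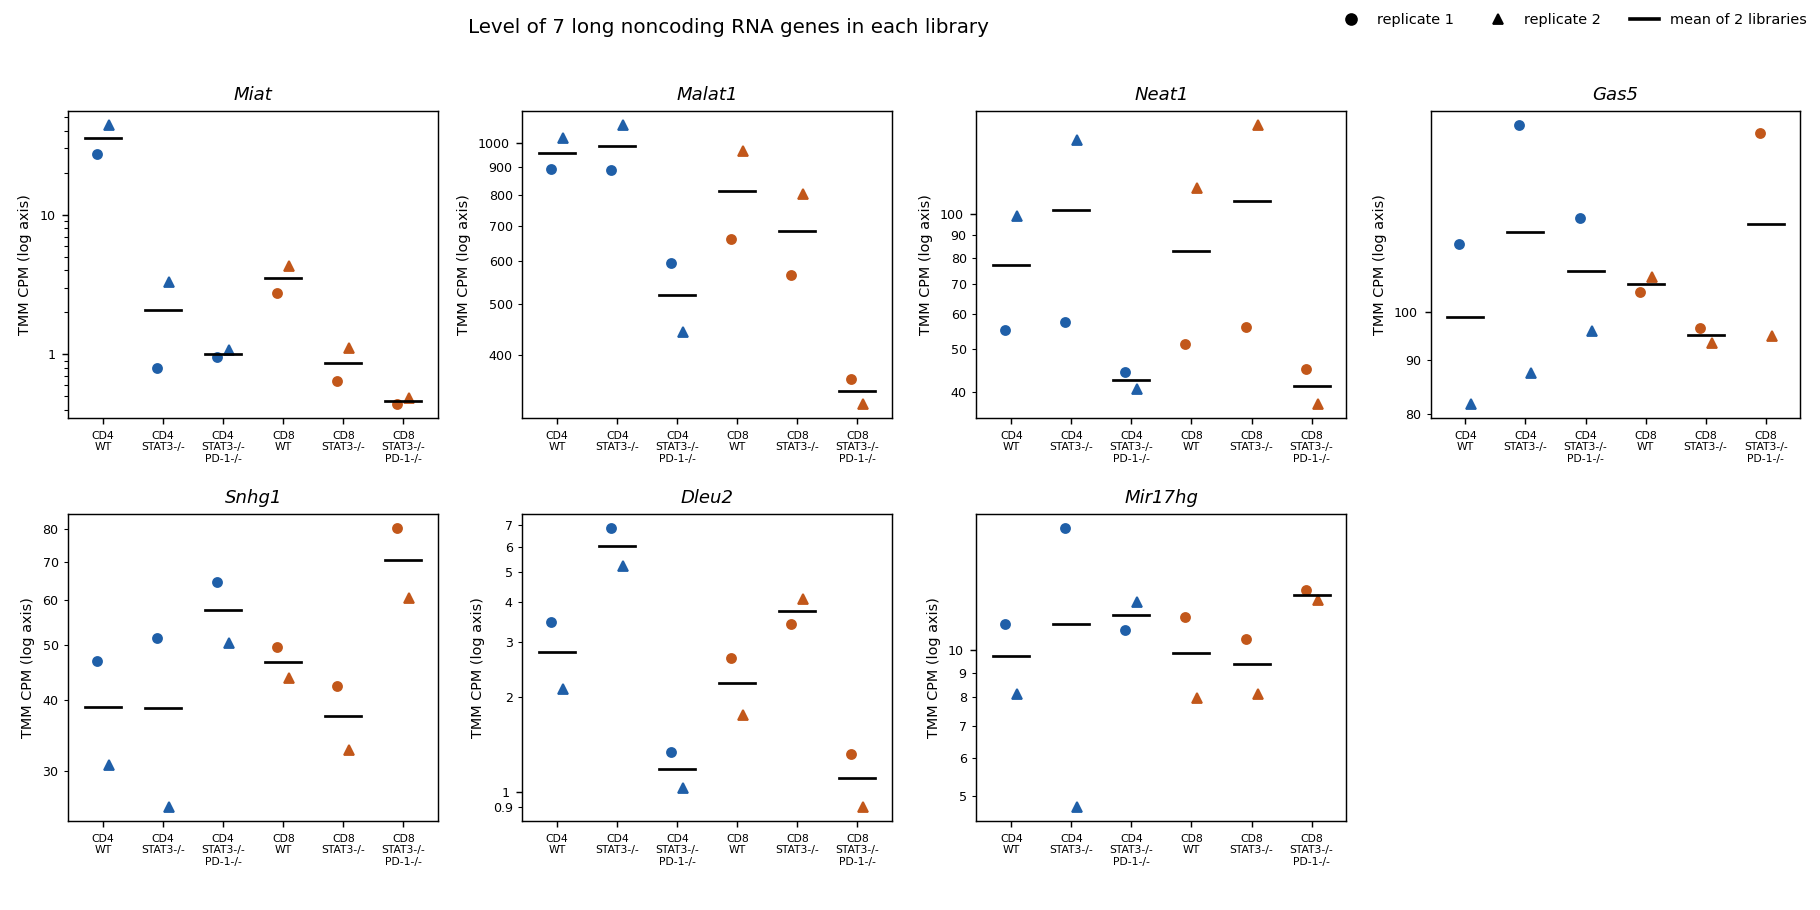
Level of each of the 7 genes in each of the 12 libraries, as TMM CPM on a log axis whose range differs between panels, with CD4 groups in blue, CD8 groups in orange, circles for replicate 1, triangles for replicate 2, and bars for the mean of 2 libraries. Miat at 27.3 and 44.2 CPM in CD4 WT lies above every other library, Malat1 is lowest in the STAT3-/-PD-1-/- groups, and Dleu2 is highest in the STAT3-/- groups.

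Malat1 was lower where both STAT3 and PD-1 were missing and differed little where only STAT3 was. In CD4 cells, levels were 893 and 1023 CPM in WT, 891 and 1081 CPM in STAT3-/- and 596 and 442 CPM in STAT3-/-PD-1-/-. In CD8 cells, they were 660 and 964 CPM in WT, 567 and 803 CPM in STAT3-/- and 361 and 324 CPM in STAT3-/-PD-1-/-. In both subsets, the STAT3-/-PD-1-/- libraries lay below all others of that subset, whereas WT and STAT3-/- libraries overlapped.

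The log2 fold change of Malat1 in STAT3-/-PD-1-/- cells was -0.86 ± 0.19 against WT and -0.91 ± 0.19 against STAT3-/- in CD4, and -1.24 ± 0.23 and -0.99 ± 0.23 in CD8. For STAT3-/- against WT, it was 0.05 ± 0.19 in CD4 and -0.25 ± 0.22 in CD8. Ordered by mean, from 986 CPM in CD4 STAT3-/- over 958 in CD4 WT, 812 in CD8 WT, 685 in CD8 STAT3-/- and 519 in CD4 STAT3-/-PD-1-/- to 342 in CD8 STAT3-/-PD-1-/-, each group overlapped the next except for the last pair. The tRNA-like small RNA cut from the end of Malat1, listed as Mascrna, had 0 counts in all 12 libraries. It lies inside the Malat1 gene on the same strand, so counts cannot tell the RNAs apart. The 0 counts therefore do not show that this small RNA was absent.

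Neat1 was also lowest in STAT3-/-PD-1-/- cells, with a wide spread in the other groups. In CD4 cells, levels were 55.0 and 99.5 CPM in WT, 57.4 and 147 CPM in STAT3-/-, and 44.5 and 40.8 CPM in STAT3-/-PD-1-/-. In CD8 cells, levels were 51.2 and 115 CPM in WT, 56.1 and 159 CPM in STAT3-/-, and 45.1 and 37.7 CPM in STAT3-/-PD-1-/-. Replicate 2 had more Neat1 than replicate 1 in the 4 WT and STAT3-/- groups and less in both STAT3-/-PD-1-/- groups. The macrophage markers other than Cd68 were also higher in replicate 2 of these 4 groups, and their part in Neat1 was not tested.

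As a result, the difference depended on which libraries were compared. Between STAT3-/-PD-1-/- and WT CD4 cells, the log2 difference in Neat1 was -0.31 among libraries numbered 1 and -1.28 among those numbered 2. In CD8 cells, these were -0.18 and -1.60. The labels do not say what the replicate number stands for. Over both, the log2 fold change was -0.84 ± 0.44 in CD4 and -0.998 ± 0.52 in CD8 against WT, and -1.25 ± 0.44 and -1.37 ± 0.52 against STAT3-/-. Without replicate 2 of STAT3-/-, the latter were -0.40 and -0.43. For STAT3-/- against WT, the log2 fold change of Neat1 was 0.41 ± 0.44 in CD4 and 0.37 ± 0.51 in CD8, with overlapping libraries, and the sign turned to -0.44 and -0.57 without replicate 2 of STAT3-/-.

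Proteins that build paraspeckles and nuclear speckles gave few calls with edgeR's quasi-likelihood test and Benjamini-Hochberg adjustment. All 11 paraspeckle proteins were tested, of which Sfpq was the most abundant with 401 to 621 CPM. In STAT3-/-PD-1-/- against WT CD4 cells, 1 rose, the RNA-binding protein gene Rbm14 (log2 fold change 0.65 ± 0.16, adjusted p = 0.0429), where 7.21% of all genes rose, and the median of the 11 was 0.33. In STAT3-/-PD-1-/- against STAT3-/- CD8 cells, 2 rose, Dazap1 (0.50 ± 0.12, adjusted p = 0.0356) and the 3′ end processing factor Cpsf6 (0.41 ± 0.11, adjusted p = 0.0470), where 8.76% of all genes rose, with a median of 0.25. None was called in the other 4 genotype comparisons, with medians of 0.03 to 0.32. There, 0.334% (STAT3-/- against WT) and 11.1% (STAT3-/-PD-1-/- against STAT3-/-) of all genes were called in CD4, and 0.0583% (STAT3-/- against WT) and 17.2% (STAT3-/-PD-1-/- against WT) in CD8. In these 4, 1 to 4 of the 11 had an unadjusted p under 0.05, and DESeq2 called 3 and limma 1 in STAT3-/-PD-1-/- against STAT3-/- CD4 cells and DESeq2 1 against WT in CD8. Here and below, the shares of all genes called are those of edgeR. No such share is given for DESeq2 or limma, so their counts cannot be set against one. All 3 calls were lost in each of the 4 runs that left out 1 of the libraries compared, with adjusted p of 0.0712 to 0.251 for Rbm14, 0.0648 to 0.212 for Dazap1 and 0.0735 to 0.269 for Cpsf6. Of the 11 values, 10 were above 0 in STAT3-/-PD-1-/- against WT CD4 cells. All 11 were above 0 against STAT3-/- in CD4 and against WT and STAT3-/- in CD8. In STAT3-/- against WT, 6 were above 0 in each subset. Of 9 nuclear speckle proteins and Miat-binding splicing factors tested, among them Sf1 and Srrm2, the most abundant, none was called by edgeR between genotypes, where 0.0583% to 17.2% of all genes were called, with medians of 0.03 to 0.26, at most 2 unadjusted p under 0.05 in a comparison, and 1 call by DESeq2 (STAT3-/-PD-1-/- against STAT3-/- in CD4). The median over all genes tested lay within 0.0126 of 0 in these comparisons.

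Gas5 levels of the genotypes mostly overlapped. In CD4 cells, levels were 116 and 81.7 CPM in WT, 150.3 and 87.4 CPM in STAT3-/-, and 123 and 95.8 CPM in STAT3-/-PD-1-/-. In CD8 cells, they were 104 and 108 CPM in WT, 96.5 and 93.3 CPM in STAT3-/-, and 148 and 94.7 CPM in STAT3-/-PD-1-/-. All CD4 groups overlapped, and in CD8 cells only STAT3-/- lay apart, below WT. Log2 fold changes ran from -0.16 to 0.36, with SE between 0.20 and 0.28.

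Snhg1 was highest in STAT3-/-PD-1-/- cells. CD4 levels were 46.9 and 30.7 CPM in WT, 51.3 and 25.9 CPM in STAT3-/-, and 64.6 and 50.4 CPM in STAT3-/-PD-1-/-. CD8 levels were 49.5 and 43.7 CPM in WT, 42.2 and 32.6 CPM in STAT3-/-, and 80.4 and 60.5 CPM in STAT3-/-PD-1-/-. The STAT3-/-PD-1-/- libraries were apart from both other genotypes in CD8 cells, and from WT but not from STAT3-/- in CD4 cells.

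The log2 fold change of Snhg1 in STAT3-/-PD-1-/- cells was 0.59 ± 0.33 against WT and 0.60 ± 0.33 against STAT3-/- in CD4, and 0.60 ± 0.18 and 0.92 ± 0.18 in CD8. For STAT3-/- against WT, it was -0.01 ± 0.33 in CD4 and -0.32 ± 0.18 in CD8.

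The other snoRNA host genes, of which 17 of 20 passed the filter on low counts, had mostly positive values in the comparisons with STAT3-/-PD-1-/- cells, as Snhg1 did, though few passed the test. Snhg3, host of a snoRNA pair, had 19.5 and 20.7 CPM in CD4 WT, 22.5 and 13.8 CPM in CD4 STAT3-/-, and 35.1 and 38.5 CPM in CD4 STAT3-/-PD-1-/-. In CD8 cells, Snhg3 had 24.2 and 38.02 CPM in WT, 19.1 and 18.6 CPM in STAT3-/-, and 43.9 and 46.3 CPM in STAT3-/-PD-1-/-. In both subsets, its 2 STAT3-/-PD-1-/- libraries were above all others.

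By edgeR's quasi-likelihood test, Snhg3 was the 1 host that rose in CD4 STAT3-/-PD-1-/- cells, both against WT (log2 fold change 0.89 ± 0.24, adjusted p = 0.0490) and against STAT3-/- (1.04 ± 0.24, adjusted p = 0.0349). The shares of all genes called higher in these comparisons were 7.21% and 6.05%. In CD8 cells, 2 hosts rose against STAT3-/-, Snhg3 (1.27 ± 0.22, adjusted p = 0.0130) and Snhg5 (0.65 ± 0.14, adjusted p = 0.0241), where 8.76% of all genes rose, and none was called against WT, where 9.01% rose, although 4 had an unadjusted p under 0.05 and limma called 1. With the replicate number as a block, more hosts were called in each of these 4 comparisons, with the counts given in the closing section. That block called 26% of all genes in both CD4 comparisons, and 24.7% against WT and 24.4% against STAT3-/- in CD8. Snhg5 had 28.9 and 24.4 CPM in CD8 STAT3-/- and 42.0 and 41.0 CPM in CD8 STAT3-/-PD-1-/-. Without replicate 1 or replicate 2 of CD8 STAT3-/-PD-1-/-, the adjusted p of Snhg3 in CD8 was 0.0518 and 0.103. The CD4 call of Snhg3 against WT was lost without any of the 4 libraries compared (adjusted p = 0.142 to 0.245), and that of Snhg5 without 3 of its 4 (0.0799 to 0.164). The CD4 call of Snhg3 against STAT3-/- was lost without either STAT3-/-PD-1-/- library or without replicate 2 of STAT3-/- (0.0971 to 0.233).

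The medians of the 17 hosts were 0.42 against WT and 0.42 against STAT3-/- in CD4 STAT3-/-PD-1-/- cells, and 0.38 and 0.65 in CD8. In these 4 comparisons, 15, 15, 15 and 17 of the 17 values were above 0. For STAT3-/- against WT, the median was 0.17 in CD4 with 9 of 17 above 0, and -0.29 in CD8 with 1 of 17 above 0. No host was called there by edgeR, DESeq2 or limma, and 1 and 3 had an unadjusted p under 0.05 (11% of all genes in CD8). Of all genes, 0.334% and 0.0583% were called. Taf1d, the most abundant of the hosts, was at 50.9 to 110 CPM, and Snhg10 had the highest value in CD4 against WT (1.94 ± 0.53, adjusted p = 0.0538).

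**Figure D2:**
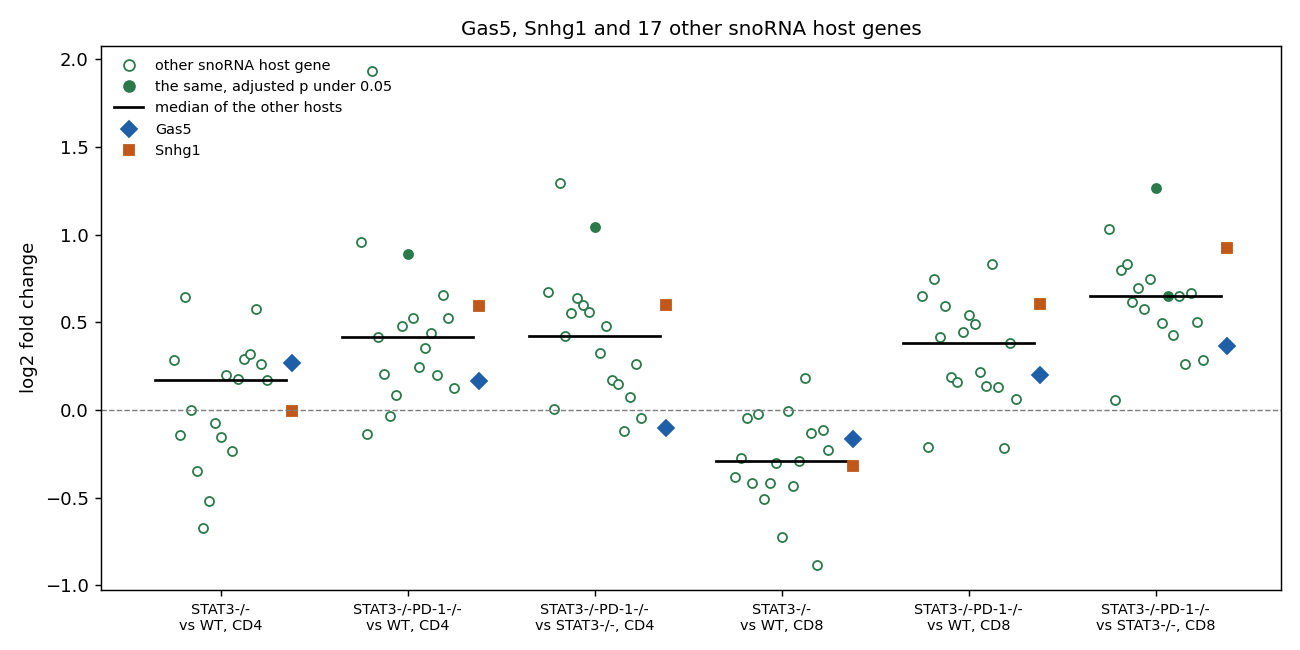
Log2 fold change of Gas5 (blue diamonds), Snhg1 (orange squares) and 17 other snoRNA host genes (circles, filled where the adjusted p was under 0.05) in the 6 genotype comparisons, with the median of the 17 as a bar. The medians lie between 0.38 and 0.65 in the 4 comparisons with STAT3-/-PD-1-/- cells, at 0.17 for STAT3-/- against WT in CD4 and at -0.29 in CD8.

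Dleu2 differed most between the 2 mutant genotypes. In CD4 cells, its levels were 3.46 and 2.12 CPM in WT (76 and 50 counts), 6.88 and 5.20 CPM in STAT3-/- (146 and 117 counts), and 1.34 and 1.03 CPM in STAT3-/-PD-1-/- (31 and 26 counts). In CD8 cells, levels were 2.67 and 1.76 CPM in WT (60 and 44 counts), 3.41 and 4.09 CPM in STAT3-/- (79 and 100 counts), and 1.33 and 0.898 CPM in STAT3-/-PD-1-/- (30 and 22 counts). The 3 genotypes did not overlap in either subset, with WT in between.

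Against STAT3-/-, the log2 fold change of Dleu2 in STAT3-/-PD-1-/- cells was -2.33 ± 0.35 in CD4 and -1.74 ± 0.35 in CD8. Against WT, it was -1.20 ± 0.36 and -0.98 ± 0.36, and that of STAT3-/- against WT was 1.12 ± 0.33 and 0.76 ± 0.33. Ordered by mean ± SD (n = 2), Dleu2 went from 6.04 ± 1.18 CPM in CD4 STAT3-/- over 3.75 ± 0.481 in CD8 STAT3-/-, 2.79 ± 0.946 in CD4 WT, 2.21 ± 0.644 in CD8 WT and 1.19 ± 0.219 in CD4 STAT3-/-PD-1-/- to 1.11 ± 0.303 in CD8 STAT3-/-PD-1-/-. CD4 STAT3-/- was apart from the next group and CD8 WT from CD4 STAT3-/-PD-1-/-, whereas the other neighbours overlapped.

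Mir17hg levels overlapped between all genotypes in CD4 cells. In CD4 cells, levels were 11.3 and 8.13 CPM in WT, 17.9 and 4.76 CPM in STAT3-/-, and 11.04 and 12.6 CPM in STAT3-/-PD-1-/-. CD8 libraries had 11.7 and 7.99 CPM in WT, 10.6 and 8.14 CPM in STAT3-/-, and 13.3 and 12.7 CPM in STAT3-/-PD-1-/-. The highest and the lowest of the 12 libraries were both CD4 STAT3-/-. In CD8 cells, the STAT3-/-PD-1-/- libraries lay above the others, with log2 fold changes of 0.41 ± 0.24 against WT and 0.49 ± 0.24 against STAT3-/-. Myc, whose protein binds the Mir17hg locus, was at 43.6 to 98.3 CPM and was not called between genotypes, with log2 fold changes of -0.20 ± 0.33 to 0.39 ± 0.34, and neither were the other MYC family genes tested, none of which had an unadjusted p under 0.05 between genotypes.

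Mature microRNAs are not captured by libraries of this kind. The listed hairpins of Mir15a, Mir16-1 and Mir19b-1 had at most 3 counts in any library and Mir92-1 had none. What the data hold instead are the transcripts of known targets. Among 7 of 8 miR-15/16 targets tested, Bcl2, which encodes an inhibitor of apoptosis, had 306 and 298 CPM in CD4 WT, 243 and 271 CPM in CD4 STAT3-/-, and 127 and 116 CPM in CD4 STAT3-/-PD-1-/-. CD8 libraries had 278 and 237 CPM of Bcl2 in WT, 238 and 245 CPM in STAT3-/-, and 106 and 93.0 CPM in STAT3-/-PD-1-/-. All 4 STAT3-/-PD-1-/- libraries were below all others, as they were for Dleu2.

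In STAT3-/-PD-1-/- CD4 cells, Bcl2 fell against WT (log2 fold change -1.29 ± 0.14, edgeR quasi-likelihood adjusted p = 0.00414) and against STAT3-/- (-1.06 ± 0.14, adjusted p = 0.00882), and in CD8 cells it fell by 1.36 ± 0.13 (adjusted p = 0.00259) and by 1.26 ± 0.13 (adjusted p = 0.00357). Against WT in CD8, the call stood without any 1 library. Without replicate 2 of STAT3-/-PD-1-/-, the adjusted p of Bcl2 was 0.0623 against WT and 0.122 against STAT3-/- in CD4 and 0.0586 against STAT3-/- in CD8, and without replicate 1 of STAT3-/-PD-1-/- it was 0.0581 against STAT3-/- in CD4.

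Ccne1 (cyclin E1, which drives entry into S phase) rose in STAT3-/-PD-1-/- cells, against WT by 1.00 ± 0.22 in CD4 (adjusted p = 0.0306) and 0.88 ± 0.13 in CD8 (adjusted p = 0.00856), and against STAT3-/- by 0.89 ± 0.22 (adjusted p = 0.0479) and 0.54 ± 0.13 (adjusted p = 0.0340). Leaving out replicate 2 of STAT3-/-PD-1-/- ended each of these Ccne1 calls (adjusted p = 0.0686 to 0.285), and in all but CD8 against WT other libraries did so too. Its levels were 34.7 to 51.5 CPM in the WT and STAT3-/- CD4 libraries against 78.0 and 87.6 CPM in CD4 STAT3-/-PD-1-/-, and 50.6 to 72.9 CPM against 96.8 and 101 CPM in CD8.

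Counted over the 7 tested targets of miR-15/16, 2 rose and 1 fell in STAT3-/-PD-1-/- against WT CD4 cells, and 3 rose and 1 fell in CD8, with medians of 0.06 and 0.42, where 12.9% and 17.2% of all genes were called. Against STAT3-/-, 1 rose and 1 fell in CD4 and 2 rose and 1 fell in CD8, with medians of 0.38 and 0.08, where 11.1% and 16.8% of all genes were called. The others that rose were the checkpoint kinase genes Wee1, against WT in CD4 (0.73 ± 0.17, adjusted p = 0.0372) and in CD8 (0.52 ± 0.13, adjusted p = 0.0421), and Chek1, against WT in CD8 (0.71 ± 0.15, adjusted p = 0.0248), and Cdk6, against STAT3-/- in CD8 (0.46 ± 0.12, adjusted p = 0.0406). The calls of Wee1, Chek1 and Cdk6 were lost in each run that left out 1 of the libraries compared, with adjusted p of 0.0530 to 0.263. In STAT3-/-PD-1-/- cells, DESeq2 called 3 of these targets in CD4 and 5 in CD8 against WT, and 4 in each subset against STAT3-/-. limma called 2 in CD4 and 3 in CD8 against WT, and 2 in each subset against STAT3-/-. None was called by edgeR in STAT3-/- against WT, where 0.334% of all genes were called in CD4 and 0.0583% in CD8. There, medians were 0.15 in CD4 and 0.34 in CD8, 1 and 5 had an unadjusted p under 0.05 (11% of all genes in CD8), and DESeq2 called 1 in CD8. Ccnd2 (cyclin D2), the most abundant target, did not pass the test between genotypes.

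All 12 miR-17-92 targets were tested. Tgfbr2, a receptor of the inhibitory cytokine TGF-beta and the most abundant of them, had 344 and 396 CPM in CD4 WT, 355 and 387 CPM in CD4 STAT3-/-, and 214 and 231 CPM in CD4 STAT3-/-PD-1-/-. In CD8 cells, Tgfbr2 was at 280.3 and 275 CPM in WT, 273 and 259 CPM in STAT3-/-, and 157 and 163 CPM in STAT3-/-PD-1-/-. Again the STAT3-/-PD-1-/- libraries were the lowest of their subset.

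By the same edgeR test, Tgfbr2 fell in STAT3-/-PD-1-/- cells against WT by 0.71 ± 0.14 in CD4 (adjusted p = 0.0237) and 0.78 ± 0.11 in CD8 (adjusted p = 0.00595), and against STAT3-/- by 0.72 ± 0.14 (adjusted p = 0.0283) and 0.72 ± 0.11 (adjusted p = 0.00819). Without replicate 2 of STAT3-/-PD-1-/-, the adjusted p of Tgfbr2 was 0.0578 and 0.0710 in CD8 and 0.131 and 0.178 in CD4. Without replicate 1 of STAT3-/-PD-1-/- in CD4, it was 0.142 and 0.125, and the CD4 calls were also lost without replicate 2 of WT or of STAT3-/-, respectively.

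E2f1, a transcription factor of S phase genes, rose in CD4 STAT3-/-PD-1-/- cells against WT (0.73 ± 0.14, adjusted p = 0.0213) and against STAT3-/- (0.75 ± 0.14, adjusted p = 0.0249), from 26.6 to 28.4 CPM in the WT and STAT3-/- libraries to 44.2 and 47.0 CPM. E2f3 rose in CD8 STAT3-/-PD-1-/- cells, by 0.52 against WT (adjusted p = 0.0491) and by 0.52 against STAT3-/- (adjusted p = 0.0478). The nuclear receptor gene Rora fell against WT in CD4 (-1.04 ± 0.23, adjusted p = 0.0278). The chemokine receptor gene Ccr6 rose against STAT3-/- in CD8 (3.26 ± 0.56, adjusted p = 0.0136), from 8 and 2 counts to 40 and 57 counts, and read 4.56 without replicate 1 and 2.57 without replicate 2 of CD8 STAT3-/-. Each of these calls of E2f1, E2f3, Rora and Ccr6 was lost without replicate 2 of STAT3-/-PD-1-/- (adjusted p = 0.1096 to 0.188 over the 6 calls), and those of E2f3 (0.0940 to 0.224) and of E2f1 against WT (0.0909 to 0.1445) in every run that left out 1 library. The counts in STAT3-/-PD-1-/- against WT were 1 higher and 2 lower in CD4 and 1 and 1 in CD8, and against STAT3-/- they were 1 and 1 in CD4 and 2 and 1 in CD8. None was called in STAT3-/- against WT by edgeR, DESeq2 or limma, where edgeR called 0.334% of all genes in CD4 and 0.0583% in CD8. There, 3 in CD4 and 1 in CD8 had an unadjusted p under 0.05, as 11% of all genes did in CD8. In STAT3-/-PD-1-/- cells, 12.9% and 17.2% of all genes were called against WT and 11.1% and 16.8% against STAT3-/- in CD4 and CD8. Of the 12 targets, edgeR called 3, 2, 2 and 3 in these comparisons, DESeq2 3, 2, 4 and 4, and limma 3, 2, 2 and 2. Medians over the 12 targets were -0.04 to 0.17.

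**Figure D3:**
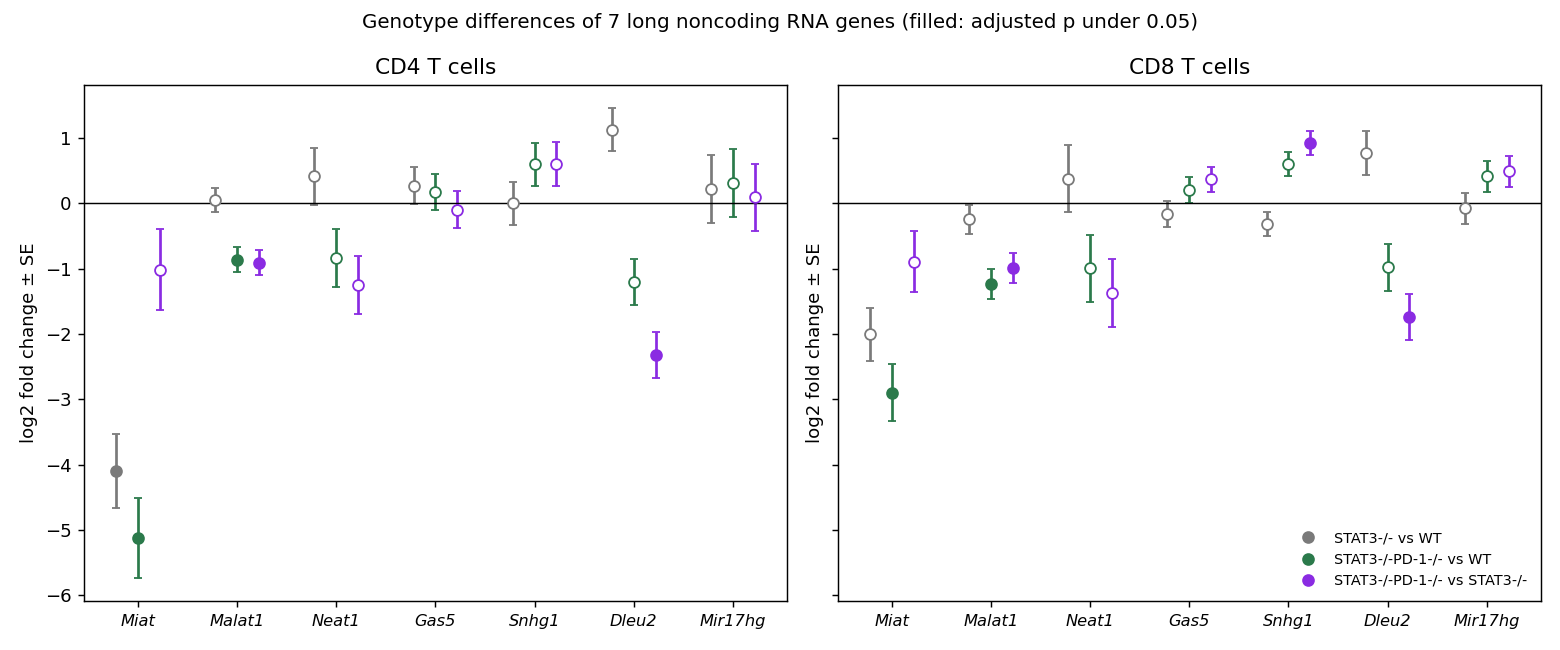
Log2 fold change ± SE of the 7 genes in CD4 (left) and CD8 (right) T cells, for STAT3-/- against WT (grey), STAT3-/-PD-1-/- against WT (green) and STAT3-/-PD-1-/- against STAT3-/- (purple), filled where the adjusted p over all genes was under 0.05. Miat has the lowest values, -5.11 in CD4 and -2.90 in CD8, Dleu2 reads 1.12 and 0.76 in STAT3-/- and -1.20 and -0.98 in STAT3-/-PD-1-/- against WT, and Gas5 stays between -0.16 and 0.36.

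Counted together at an adjusted p under 0.05, and given only as a description, 1 of the 7 was lower in STAT3-/- than in WT CD4 cells (Miat), where 0.334% of all genes were called. In STAT3-/-PD-1-/- against WT CD4 cells, 2 were lower (Miat and Malat1; 12.9% of all genes called), and against STAT3-/- CD4 cells 2 were lower (Malat1 and Dleu2; 11.1%). None was called in STAT3-/- against WT CD8 cells (0.0583%) by edgeR or limma and 1 by DESeq2, and 1 had an unadjusted p under 0.05, as 11% of all genes did. In CD8 cells, STAT3-/-PD-1-/- against WT had 2 lower (Miat and Malat1; 17.2%), and STAT3-/-PD-1-/- against STAT3-/- had 2 lower (Malat1 and Dleu2) and 1 higher (Snhg1; 16.8%). The median of the 7 log2 fold changes was 0.22, -0.84 and -0.91 in these 3 CD4 comparisons and -0.16, -0.98 and -0.89 in CD8. With the replicate number as a block, 4 of the 7 were called in CD4 STAT3-/-PD-1-/- cells against WT (Miat, Malat1 and Dleu2 lower, Snhg1 higher) and 4 against STAT3-/- (Malat1, Neat1 and Dleu2 lower, Snhg1 higher), where 26% of all genes were called in each. Groups whose libraries did not overlap were common in these data, at 38.2%, 59.2% and 59.2% of all genes in the CD4 comparisons and 43.6%, 59.7% and 63.1% in CD8.

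Leaving out 1 library moved these counts. In CD4 cells, the count for STAT3-/- against WT was 0 without replicate 2 of WT. The counts of both STAT3-/-PD-1-/- comparisons fell to 0 in either subset without replicate 1 and also without replicate 2 of STAT3-/-PD-1-/-. Without replicate 2 of WT, the count against WT was 1 in CD4, without replicate 2 of STAT3-/- the count against STAT3-/- was 1 in CD4 and 0 in CD8, and the counts against STAT3-/- rose to 6 in CD4 and 4 in CD8 without replicate 1 of STAT3-/-.

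Between the subsets, Miat was again the gene that differed most. It was 10.1-fold lower in CD8 than in CD4 WT cells (log2 fold change -3.33 ± 0.50), and the log2 difference was -3.26 between libraries numbered 1 and -3.33 between those numbered 2. In STAT3-/- cells, the log2 fold change of CD8 against CD4 was -1.24 ± 0.58 with overlapping libraries, and the sign turned to 0.14 without replicate 2 of CD4 STAT3-/-. In STAT3-/-PD-1-/- cells, it was -1.11 ± 0.67 without overlap.

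For Malat1, the log2 fold change of CD8 against CD4 was -0.24 ± 0.22 in WT cells, where the libraries overlapped and the sign turned to 0.01 without replicate 1 of CD8 WT. It was -0.53 ± 0.23 in STAT3-/- and -0.60 ± 0.23 in STAT3-/-PD-1-/- cells, without overlap. At an adjusted p under 0.05, 1 of the 7 was lower in CD8 than in CD4 WT cells, Miat, where 10.5% of all genes were called, and none was called by edgeR, DESeq2 or limma in STAT3-/- (9.62%) or STAT3-/-PD-1-/- cells (4.14%). In each of these genotypes, 1 had an unadjusted p under 0.05, as 22% and 14.7% of all genes did, and libraries of the subsets did not overlap for 48.1% of all genes in the WT genotype, 47.5% where STAT3 alone was deleted and 46.5% where both were. CD4 and CD8 fractions came from the same livers. With the pool of recipients as a block, 3 were lower in STAT3-/- (Miat, Malat1 and Dleu2) and 1 in STAT3-/-PD-1-/- cells (Malat1), where 24.9% and 14.4% of all genes were called with that block.

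Other long noncoding RNAs were tested as a list of 30, of which 16 in CD4 and 17 in CD8 passed the filter. With edgeR's quasi-likelihood test, none was called in STAT3-/- against WT, nor with DESeq2 or limma. There, edgeR called 0.334% of all genes in CD4 and 0.0583% in CD8. The medians were 0.24 in CD4 and -0.01 in CD8, and 3 and 0 had an unadjusted p under 0.05 (11% of all genes in CD8). All edgeR calls in the other 4 genotype comparisons were lower. In CD4 STAT3-/-PD-1-/- cells, Peg13, an imprinted RNA, fell against WT (-1.21 ± 0.22, adjusted p = 0.0156) and against STAT3-/- (-1.02 ± 0.22, adjusted p = 0.0320). It had 10.6 and 11.01 CPM in WT, 8.90 and 9.96 CPM in STAT3-/- and 4.15 and 5.04 CPM in STAT3-/-PD-1-/- CD4 libraries. Tug1, the other RNA called by edgeR in CD4, fell against STAT3-/- (-0.68 ± 0.15, adjusted p = 0.0332). Thus 1 of 16 was lower against WT and 2 of 16 against STAT3-/-, with 5.65% and 5.03% of all genes lower, and medians of 0.03 and -0.16. DESeq2 called 4 and 3 of this list in the same comparisons, and limma 1 and 3, without a share of all genes for either tool.

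In CD8 cells, Ifngas1, which is transcribed next to the interferon-gamma gene, was at 2.89 and 3.51 CPM in WT (65 and 88 counts), 3.06 and 4.58 CPM in STAT3-/- (71 and 112 counts), and 0.751 and 0.490 CPM in STAT3-/-PD-1-/- (17 and 12 counts). It fell by 2.36 ± 0.38 on the log2 scale against WT (adjusted p = 0.0102) and by 2.61 ± 0.38 against STAT3-/- (adjusted p = 0.00882). Mir22hg, the precursor of miR-22, fell against WT in CD8 (-1.26 ± 0.34, adjusted p = 0.0460). These made 2 of 17 lower against WT and 1 of 17 against STAT3-/-, with 8.21% and 8.05% of all genes lower, and medians of -0.02 and -0.03. DESeq2 called 3 of this list in each of these comparisons, and limma 1 in each.

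Ifngas1 was the most subset-bound of this list in WT cells, 2.61 ± 0.52 higher in CD8 than in CD4 (log2, adjusted p = 0.0104), the opposite side from Miat. This value was 4.09 without replicate 2 and 1.92 without replicate 1 of CD4 WT. Ifngas1 was the 1 of 17 called by edgeR between the subsets in WT cells, where 10.5% of all genes were called. DESeq2 called 2 of this list there. Without replicate 2 of CD8 STAT3-/-PD-1-/-, the adjusted p of Ifngas1 was 0.0816 against WT and 0.0840 against STAT3-/-, and without replicate 2 of CD8 WT it was 0.0586 between the subsets. The calls of Tug1 and Mir22hg were lost in every run that left out 1 library (adjusted p = 0.0518 to 0.244), as was that of Peg13 against WT (0.0515 to 0.0997), and that of Peg13 against STAT3-/- was lost in 3 of 4 (0.105 to 0.157).

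For the nearest gene on each side, genes named as microRNAs, snoRNAs or with Gm or Rik names were passed over unless they overlapped. Of the nearest and overlapping genes so taken, and not among the 7, edgeR called only Frmd8 and Wdr74 between genotypes. Both calls were in STAT3-/-PD-1-/- against STAT3-/- CD8 cells, where 16.8% of all genes were called. For Miat, the nearest genes so taken were Cryba4, a lens crystallin gene, at 17.543 kb and Mn1 at 756.197 kb. Cryba4 had a log2 fold change of 0.20 ± 0.63 in STAT3-/- and -0.53 ± 0.67 in STAT3-/-PD-1-/- against WT CD4 cells (edgeR adjusted p = 0.956 and 0.644), and Mn1 did not pass the filter on low counts.

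Malat1 and Neat1 are 22.037 kb apart. Frmd8, on the other side of Neat1 at 5.493 kb, fell in CD8 STAT3-/-PD-1-/- against STAT3-/- cells (-0.47 ± 0.12, adjusted p = 0.0381). Neat1 itself was not called there (edgeR adjusted p = 0.111). In the other 3 comparisons with STAT3-/-PD-1-/- cells, the values of Frmd8 were -0.47 and -0.44 in CD4 and -0.35 in CD8 (adjusted p = 0.0916, 0.112 and 0.0831). The call of Frmd8 was lost in each run that left out 1 library (adjusted p = 0.0555 to 0.234).

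Snhg1 lies 117 bases from Slc3a2, which encodes the CD98 heavy chain and is read from the other strand, and 9.512 kb from Wdr74, a factor of ribosome assembly. Wdr74 rose in CD8 STAT3-/-PD-1-/- against STAT3-/- cells (0.75 ± 0.15, adjusted p = 0.0219), with 40.3 and 48.1 CPM against 29.0 and 24.2 CPM, and read 0.71 ± 0.19 in CD4 (adjusted p = 0.0521). Without replicate 2 of CD8 STAT3-/- or of CD8 STAT3-/-PD-1-/-, the adjusted p of Wdr74 was 0.134. Slc3a2 was not called in any genotype comparison, with values of -0.18 to -0.65. Gas5 lies 66 bases from Zbtb37, which was not called between genotypes. Trim13 and Kcnrg overlap Dleu2 on the opposite strand. Neither was called between genotypes, and in STAT3-/-PD-1-/- against STAT3-/- cells Trim13 read 0.07 ± 0.32 in CD4 and 0.16 ± 0.20 in CD8, where Dleu2 read -2.33 and -1.74. Whether the counting used strand is not given in the sources used here, and without it reads of overlapping genes cannot be told apart.

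**Figure D4:**
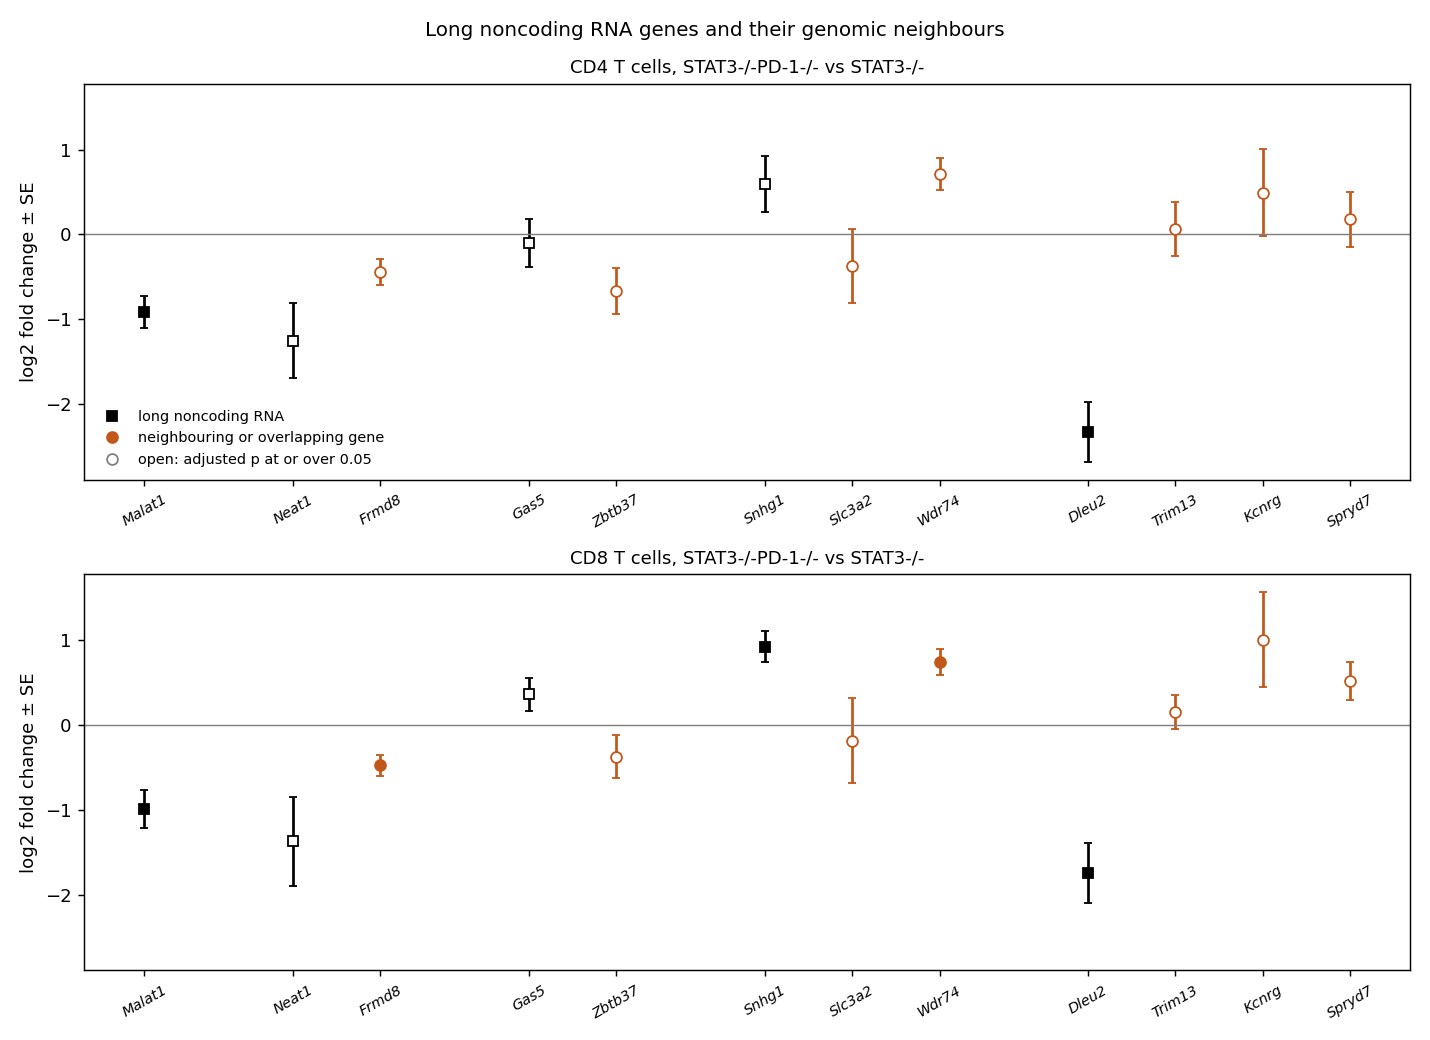
Log2 fold change ± SE in STAT3-/-PD-1-/- against STAT3-/- cells of 5 long noncoding RNA genes (black squares) and of 7 neighbouring or overlapping genes (orange circles), with CD4 above and CD8 below, filled where the adjusted p was under 0.05. Wdr74 beside Snhg1 reads 0.71 and 0.75, Frmd8 beside Neat1 reads -0.44 and -0.47, and Trim13, which overlaps one end of Dleu2, reads 0.07 and 0.16.

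The genes most like each of the 7 were ranked by Pearson's r of log2 CPM over the 12 libraries, among 8601 genes whose mean log2 CPM was 3 or more. The libraries share genotype and subset, so r mostly restates the group pattern, and no test result is printed for genes chosen in this way. Nearest to Miat were Neb (nebulin, r = 0.975), Adam8 (a membrane metalloprotease, r = 0.974), B4galnt4 (a glycosyltransferase, r = 0.968), Fam98c (r = 0.945) and Uhrf1bp1l (r = 0.942).

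B4galnt4 came closest to Miat in size. It had 101 and 115 CPM in CD4 WT, 8.01 and 12.2 CPM in CD4 STAT3-/-, and 7.75 and 6.67 CPM in CD4 STAT3-/-PD-1-/-. In CD8 cells, B4galnt4 had 22.6 and 24.6 CPM in WT, 4.70 and 5.52 CPM in STAT3-/-, and 4.11 and 1.92 CPM in STAT3-/-PD-1-/-. Both WT groups were above all others and CD4 WT above CD8 WT, whereas for Miat CD8 WT overlapped CD4 STAT3-/-.

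The log2 fold change of B4galnt4 against WT in CD4 cells was -3.41 ± 0.24 for the STAT3-/- and -3.88 ± 0.25 for the STAT3-/-PD-1-/- genotype, and -2.21 and -2.97 ± 0.34 in CD8, where Miat read -4.09, -5.11, -2.01 and -2.90. In CD8 STAT3-/-PD-1-/- cells, the value of B4galnt4 was -3.62 without replicate 1 and -2.52 without replicate 2. Adam8 differed less, with 331 and 339.8 CPM in CD4 WT against 158 and 169.8 CPM in CD4 STAT3-/-.

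**Figure D5:**
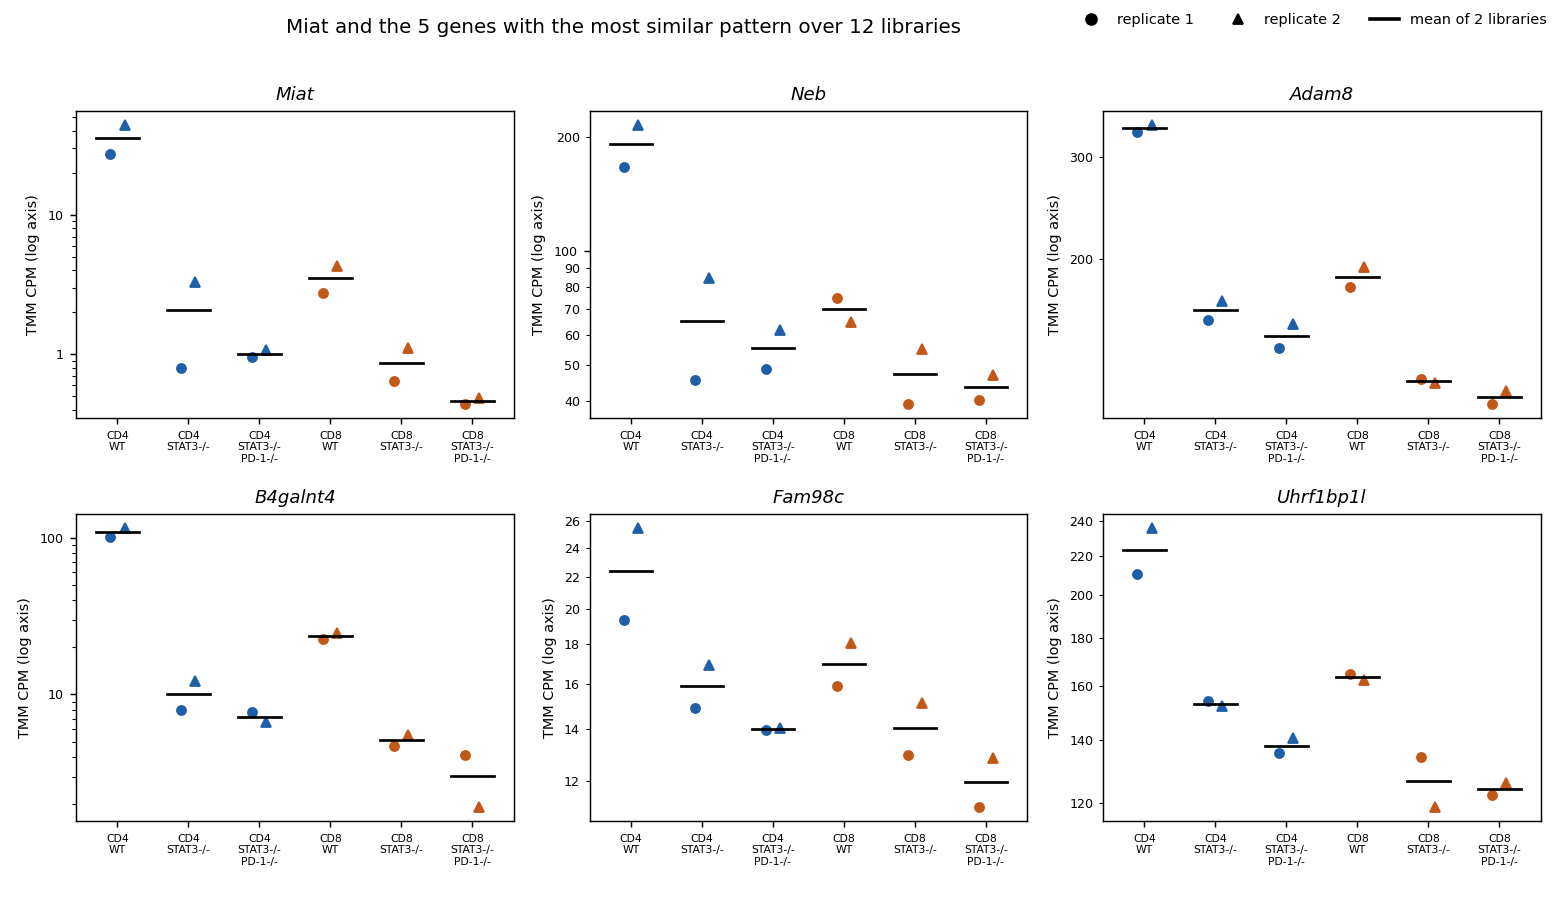
Level of Miat and of the 5 genes with the highest r with it in each of the 12 libraries, as TMM CPM on log axes whose ranges differ between panels, with CD4 in blue, CD8 in orange, circles for replicate 1, triangles for replicate 2 and bars for the mean of 2 libraries. In all 6 panels, CD4 WT is the highest group, from 35.8 CPM on average for Miat to 4 other groups at or under 2.07 CPM beside CD8 WT at 3.54 CPM.

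For the other genes, the nearest were Acap1 (r = 0.973) and Tmem127 (0.973) for Malat1, Sfi1 (0.982) and Mllt11 (0.972) for Neat1, Serbp1 (0.961) and Morf4l2 (0.959) for Snhg1, Pgm2l1 (0.980) and Trappc8 (0.974) for Dleu2, and Dnaja2 (0.938) and Pdhb (0.933) for Mir17hg. For Gas5, they were Yme1l1 (r = 0.931) and Zfas1 (0.930), which is itself a snoRNA host. Among the 7 genes, r was 0.75 between Malat1 and Neat1, 0.79 between Snhg1 and Mir17hg, and 0.72 between Gas5 and Snhg1, whereas it was -0.84 between Neat1 and Snhg1 and -0.81 between Neat1 and Mir17hg. Miat had its highest r within the 7 with Malat1, at 0.68, and Dleu2 likewise, at 0.72.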

How the data were processed

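Per the labels and the study's methods, the authors used STAR for alignment to mm10 and HTSeq-count for RefSeq genes, and deposited raw counts per gene. The authors also deposited RPKM values, used here to compare levels between genes and, as log2(RPKM + 1), in an alternative. Totals were 21676125 to 24551477 counts per library. The labels name another library kit than the supplement and a protocol of an unrelated cell line, and the kit decides how well RNA without a poly(A) tail is seen. In the table, 26 gene names had been turned into dates.

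Counts were tested with edgeR 4.0.16 in R 4.3.3 (limma 3.58.1 and DESeq2 1.42.0 for alternatives). After filterByExpr with a minimum count of 10 and a total of at least 15, libraries were scaled by TMM. Genotypes were compared within 1 fit per subset of 6 libraries, with 3 residual degrees of freedom (11959 genes in CD4, 12002 in CD8), and all 12 libraries were used for CD8 against CD4 (12334 genes). Quasi-likelihood p-values were Benjamini-Hochberg adjusted over all genes tested, at a threshold of 0.05. The shares of all genes called are from this test. Counts by DESeq2 or limma have no share beside them, and counts of unadjusted p have one only where it is printed. The code of the STAT3-/- against WT fit in CD4 was tested on simulated data. With 2 libraries against 2, an exact permutation test cannot go below p = 0.333, so none was used. The study describes its liver data as combined from replicate experiments, but the sources used here do not say which experiment each library came from, and p-values measure only the spread between these pools.

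The 7 genes and the lists (snoRNA hosts, other noncoding RNAs, miR-17-92 and miR-15/16 targets, paraspeckle and nuclear speckle proteins, MYC genes) were chosen with earlier results of these data known. Named were the 7 genes, the deleted and lineage genes, overlapping and adjacent genes, up to 6 called genes of a list per comparison with the largest log2 fold change, the most abundant gene of each list, Myc, and the genes of highest Pearson's r (5 for Miat, 2 for each other gene). Some adjacent genes are not reported here. Snhg10, Sf1 and the marker genes were named after their values were seen. Log2 CPM for r used a prior count of 2. Figures were drawn with matplotlib 3.10.9 in Python 3.11.15. Alternatives were RLE size factors, totals without TMM, filters on low counts, DESeq2, limma on RPKM, other sets of libraries in the fit, a block for the replicate number or the pool, and leaving out each library.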

Additional observations from a re-analysis of the deposited data

How the results depend on the processing

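Malat1, Gas5, Neat1 and Snhg1 had at least 582 counts in every library, but Miat and Dleu2 rested on 10 to 27 and 22 to 31 counts in their lowest groups. The effect of depth was not tested. With the replicate number as a block, the members called of the 7 were 4 in place of 2 in both CD4 comparisons with STAT3-/-PD-1-/- cells, and the other snoRNA hosts called were 3 in place of 1 against WT and 2 in place of 1 against STAT3-/- in CD4, and 1 in place of 0 and 5 in place of 2 in CD8. The block raised calls over all genes likewise, from 1538 to 3104 and from 1324 to 3105 in these CD4 comparisons and from 2066 to 2965 and from 2017 to 2932 in CD8. The labels give the number no meaning, although the library numbers in the titles run on within each replicate number. Replicate differences of 2 genotypes correlated at 0.20 to 0.63 across genes in CD4 and at 0.06 to 0.65 in CD8, and calls over all genes rose with the block from 40 to 303 for STAT3-/- against WT in CD4 and from 7 to 9 in CD8. With the pool as a block, the members called in CD8 against CD4 were 3 in place of 0 in STAT3-/- and 1 in place of 0 in STAT3-/-PD-1-/- cells, where calls over all genes rose from 1187 to 3077 and from 511 to 1774. The member called in STAT3-/- against WT CD4 cells was lost (0) with at least 10 counts required in every library and with only the 4 libraries compared in the fit. In CD8, that comparison had 1 member called in place of 0 with DESeq2 and with all genes of at least 1 count. For snoRNA hosts in STAT3-/-PD-1-/- against WT CD4 cells, the count of 1 was 0 with RLE size factors and 2 with all genes of at least 1 count, with all 12 libraries, with only 4 libraries, with limma and without TMM. Against WT in CD8, it was 1 with limma in place of 0. Against STAT3-/- in CD8, 2 became 6 with DESeq2, 4 with all genes of at least 1 count, 1 with all 12 libraries and 7 without TMM. Leaving out 1 library at a time, members called ranged from 0 to 1, 0 to 2 and 0 to 6 in the CD4 comparisons (STAT3-/- against WT, STAT3-/-PD-1-/- against WT, and against STAT3-/-), from 0 to 0, 0 to 2 and 0 to 4 in CD8, and from 1 to 1, 0 to 1 and 0 to 0 for CD8 against CD4 in the 3 genotypes; hosts ranged from 0 to 0, 0 to 0 and 0 to 3 in CD4 and from 0 to 0, 0 to 1 and 0 to 2 in CD8. Of the values of single genes under all alternatives, 1389 kept their side of the threshold or moved by less than the spread, 240 lost their call and 42 moved further, and none of those called turned direction. The causes were not tested.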
